A study of Homo sapiens with 9 samples.

Results

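The genes described here are 53 interferon-stimulated effector genes, members of a fixed list of 54 symbols that was matched by name to the 59050 gene symbols of the count table. The listed gene that has no row was not analysed here. With the filter of at least 3 samples above 1 CPM (the count of a gene relative to its library size, which was scaled with TMM factors), 52 of the 53 genes were tested, among 13463 genes in all. The list was drawn up from what the genes are known to do and not from their values. It was chosen with earlier results of these samples known.

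RNA came from MEC1, an established cell line of chronic lymphocytic leukemia (CLL), a malignancy of mature B cells. The titles of all 9 samples begin with MECPGK, a label that the study's text does not explain. There were 9 samples: 3 cultured in 2D, for which the labels give no time, 3 bioprinted in a 3D hydrogel and harvested at day 7 (3D_7d), and 3 bioprinted and harvested at day 14 (3D_14d). MEC1 is a single line, no drug or cytokine is named for any group, and no source used here says whether replicates came from separate prints. The p-values therefore measure the spread between these samples, which may be technical. RNA of the scaffolds was isolated with TRIzol, treated with DNase I and then purified again with a column kit, whereas 2D RNA was isolated with the column kit and its own DNase wash, so extraction and culture cannot be told apart in any comparison with 2D. Total counts ranged from 54662799 to 85968686 per sample. Ribosomal protein genes took 4.13% to 4.85% of the counts in 2D, 1.68% to 1.84% at day 7 and 1.9% to 3.3% at day 14.

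Interferons are secreted proteins that bind receptors at the cell surface. Receptor-bound kinases (JAK1, TYK2, JAK2) then phosphorylate STAT transcription factors. Complexes of these factors bind the interferon-stimulated response element and the gamma-activated site in promoters. The effector genes switched on in this way sense foreign nucleic acid, degrade RNA, modify proteins with ISG15 or ADP-ribose, or block the entry and budding of viruses. In B cells many of them are also transcribed at a basal level.

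The response element was searched in the promoters of these genes as the letters GAAA, any 2 bases and GAAA again, on both strands, in a window of 250 bases before to 50 bases after the RefSeq start (GRCh38.p14), where matches may overlap each other. Of the 53 genes, 41 had an entry in the promoter table, and 27 of these 41 (65.9%) held the letters, against 996 of 27305 promoters (3.65%). The letters of the gamma-activated site, TTCNNNGAA, stood in 7 of the 41 (17.1%), against 7.88% of all promoters. Within the bases before the start alone, the letters of the response element stood in 22 of the 41 (53.7%), against 3.07% of all promoters. A match describes the letters and is not a site. The bases before the start are shown for genes that rose at day 14 with a match (IFIT1, IFI27, ISG15, IFI6, BST2 and IFITM1). They are also shown for UBE2L6, which rose, and XAF1, which fell, both without a match in the promoter searched. They run 5′ to 3′ on the strand of the gene, end at the base before the RefSeq start, and carry in capitals the matches that lie wholly before the start, on either strand.
IFIT1, chr10:89392487-89392622, plus strand: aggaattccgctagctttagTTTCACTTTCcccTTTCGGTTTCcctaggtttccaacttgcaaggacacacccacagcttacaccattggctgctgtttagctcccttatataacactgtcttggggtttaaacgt
IFI27, chr14:94110608-94110735, plus strand: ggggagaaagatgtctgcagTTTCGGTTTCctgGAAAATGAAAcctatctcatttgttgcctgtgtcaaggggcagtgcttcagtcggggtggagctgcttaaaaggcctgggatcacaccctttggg
ISG15, chr1:1013364-1013496, plus strand: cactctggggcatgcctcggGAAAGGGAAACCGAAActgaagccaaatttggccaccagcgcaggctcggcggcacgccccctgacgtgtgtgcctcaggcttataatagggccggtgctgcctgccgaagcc
IFI6, chr1:27672193-27672368, minus strand: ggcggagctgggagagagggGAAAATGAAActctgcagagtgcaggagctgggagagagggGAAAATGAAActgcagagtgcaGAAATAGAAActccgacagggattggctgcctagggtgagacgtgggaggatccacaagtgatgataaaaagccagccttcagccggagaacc
BST2, chr19:17405631-17405780, minus strand: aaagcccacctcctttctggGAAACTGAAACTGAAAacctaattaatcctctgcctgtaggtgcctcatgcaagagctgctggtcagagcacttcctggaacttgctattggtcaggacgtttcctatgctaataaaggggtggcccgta
IFITM1, chr11:313920-314039, plus strand: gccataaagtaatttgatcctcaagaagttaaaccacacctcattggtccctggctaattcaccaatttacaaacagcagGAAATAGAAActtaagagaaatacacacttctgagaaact
UBE2L6, chr11:57567936-57568055, minus strand: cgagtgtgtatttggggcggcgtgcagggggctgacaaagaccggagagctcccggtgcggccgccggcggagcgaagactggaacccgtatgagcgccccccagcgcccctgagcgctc
XAF1, chr17:6755926-6756045, plus strand: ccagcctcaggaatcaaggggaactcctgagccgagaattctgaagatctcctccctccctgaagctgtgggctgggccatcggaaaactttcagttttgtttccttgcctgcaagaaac
IFIT1 and IFI27 each held 2 separate matches, IFI6 held 3, and the 2 matches of ISG15 and of BST2 overlapped. For 14 of the 41 genes the table held more than 1 promoter, of which the one listed first was used. UBE2L6 and XAF1 had 2 each, and the second was not searched. In the annotation of the counts, the stretches of ISG15, IFITM1, UBE2L6 and XAF1 lie inside the gene, whose outermost start is farther upstream.

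**Figure D1:**
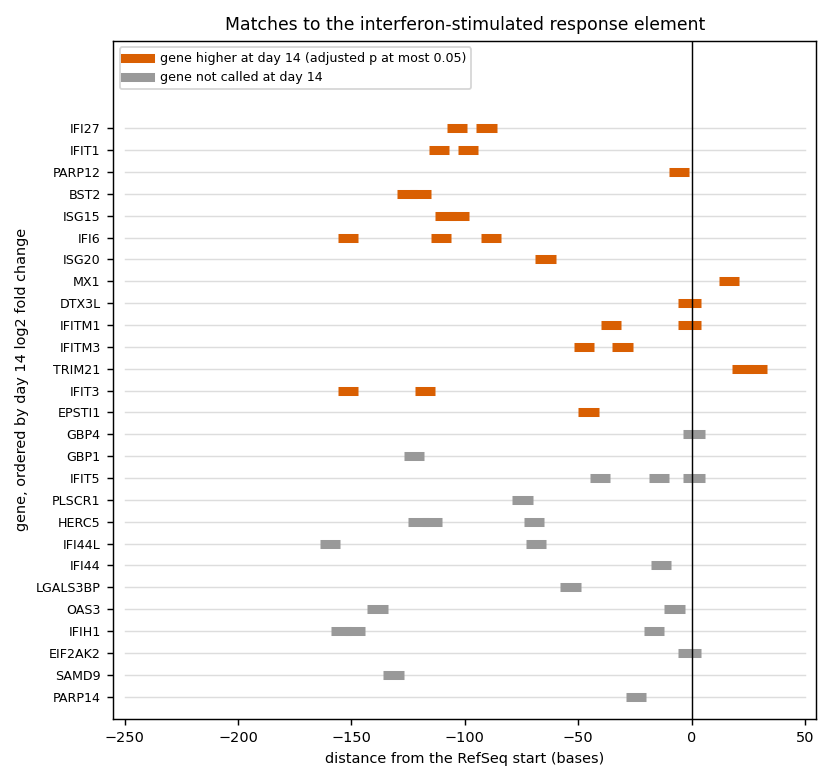
Position of the matches to the letters of the response element in the promoters of the 27 effector genes that hold them. The x axis is the distance from the RefSeq start in bases, each row is a gene, and rows are ordered by the log2 fold change at day 14 against 2D, highest at the top. Orange matches belong to the 14 genes that rose at day 14 and grey ones to the 13 genes that were not called.

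At day 14 against 2D, the effector genes leaned upwards. Among the 52 tested genes, 26 rose and 2 fell (adjusted p at most 0.05 in edgeR's quasi-likelihood test), where 19.0% of all tested genes rose and 17.2% fell. Their median log2 fold change was 0.63, against 0.02 over all genes, and 42 of the 52 had a value above 0. In 34 of the 52, each of the 3 day 14 samples lay above each of the 3 2D samples, against 24.2% of all genes, and in 2 each lay below, against 25.5%. With library sizes taken from the total counts alone, which moved the median of all genes to -0.18, 19 genes rose and 2 fell, and 33.0% of all calls were upward in place of 52.5%. In bulk RNA, fewer cells of a type and less RNA per cell cannot be told apart.

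At day 7 against 2D there was no such lean. Of the 52 genes, 11 rose and 6 fell, next to 22.2% and 21.2% of all tested genes, and the median log2 fold change was 0.04. The day 7 samples lay wholly above 2D for 12 genes (32.2% of all genes) and wholly below for 10 (32.4%). These values depended on single libraries: without day 7 replicate 1, 7 genes rose, 17 fell and the median was -0.27, and without day 7 replicate 3, 3 genes fell and the median was 0.23. Over all genes, 2985 rose and 2853 fell of 13463 in the main fit. Without day 7 replicate 1, 2566 rose and 2755 fell of 13364, and without day 7 replicate 3, 2356 of 13407 fell. With total counts alone 9 genes rose and 11 fell, the median was -0.11 where that of all genes was -0.16, and 37.6% of all calls were upward in place of 51.1%.

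Between day 7 and day 14, 20 of the 52 genes rose and 0 fell in edgeR, where 14.5% of all tested genes rose, 13.6% fell and 28.1% did either. DESeq2 called 21 up and 0 down, next to 2372 and 2133 of all 13460 genes, and 1 effector gene fell at an unadjusted p under 0.05 in edgeR. The median log2 fold change was 0.38, and 43 of the 52 values were above 0. The day 14 samples lay wholly above day 7 for 19 genes (18.9% of all genes) and wholly below for 1 (20.5%). The count was 25 without day 7 replicate 1 and 13 without day 7 replicate 2 or replicate 3. Over all genes, 1951 of 13463 rose in the main fit and 1699 of 13364 without replicate 1. Without replicate 2 these were 1193 of 13390, and without replicate 3 they were 1325 of 13407.

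**Figure D2:**
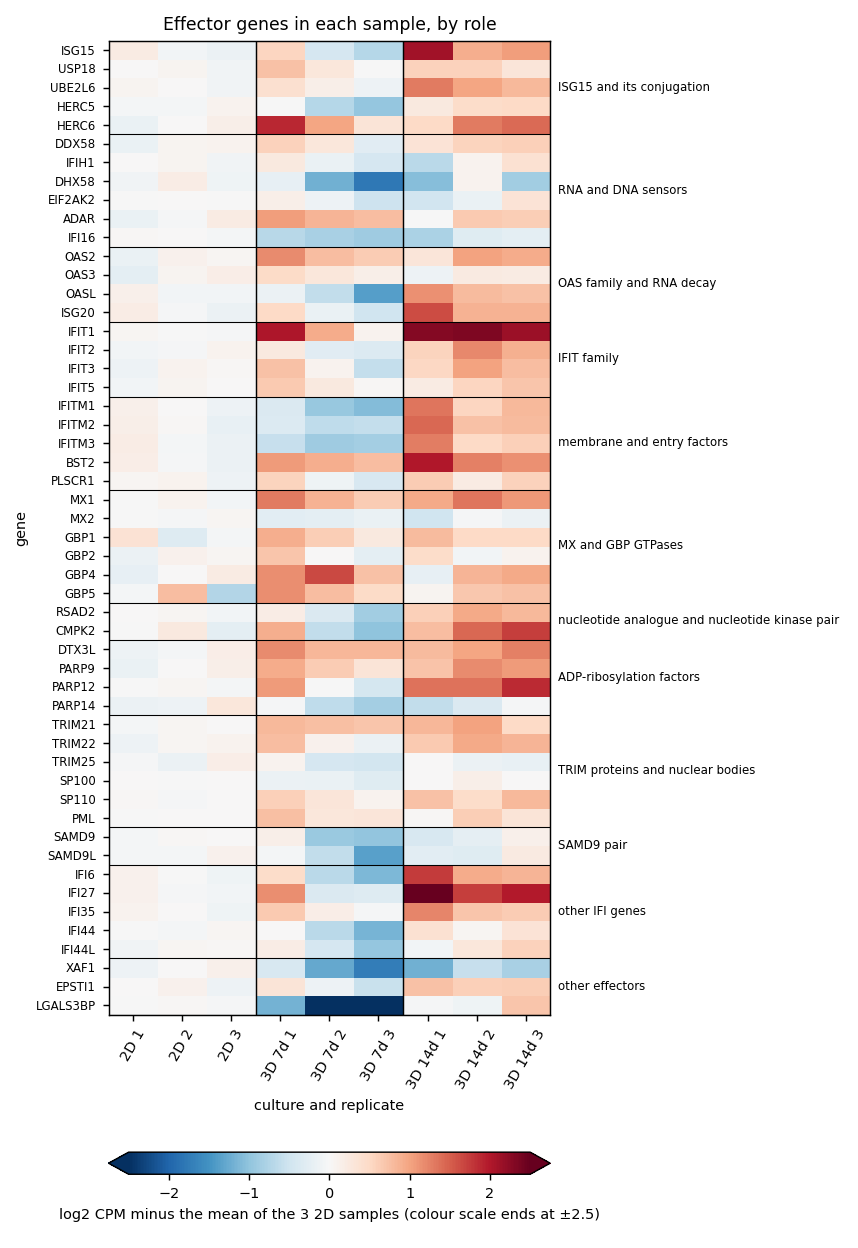
Log2 CPM of the 52 tested effector genes in each of the 9 samples, as the difference from the mean of the 3 2D samples. Rows are genes grouped by role, columns are samples, red is higher and blue is lower than 2D, and the colour scale ends at ±2.5. Day 14 columns are mostly red, and in the day 7 columns replicate 1 is the reddest for 50 of the 52 genes.

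Most of the effector genes were transcribed in 2D already. Per length, as RPKM (CPM per kilobase of summed exons), 33 of the 53 genes were at 10 or more in 2D. IFITM1 had the highest level, at 1643 ± 147 RPKM (SD, n = 3), which put it at the percentile 99.8 of the tested genes. IFITM2 (539 ± 63.2 RPKM), ISG15 (506 ± 67.9 RPKM) and BST2 (356 ± 41.0 RPKM) followed, and the levels of IFITM2 and ISG15 differed by less than their SD. At the low end stood GBP5, at 0.785 ± 0.416 RPKM, and GBP4, at 0.639 ± 0.0888 RPKM. IFITM1 remained first at day 7 (962 ± 269.5 RPKM) and at day 14 (3130 ± 906 RPKM). LAMP3, a lysosomal membrane glycoprotein, was removed by the filter, with 23 to 31 counts in the 2D samples, 17 to 26 at day 7 and 5 to 23 at day 14.

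ISG15 is a small ubiquitin-like protein that is attached to other proteins through the conjugating enzyme UBE2L6 and the ligase HERC5, and removed by USP18. Of these 5 genes with HERC6, a relative of HERC5, 3 rose at day 14 (ISG15, UBE2L6 and HERC6), 1 rose at day 7 (HERC6) and 3 rose between the time points (ISG15, UBE2L6 and HERC5). For this and the following roles, 22.2% of all tested genes rose and 21.2% fell at day 7. At day 14 the shares were 19.0% and 17.2%, and between the time points 14.5% and 13.6%. ISG15, the gene with 2 overlapping response-element matches shown above, was at 506, 416 and 394 CPM in 2D, at 634, 326 and 265 CPM at day 7, and at 1881, 815 and 896 CPM at day 14. Day 7 straddled 2D, and the 3 day 14 samples were higher than all others, with replicate 1 far above the rest. Its log2 fold change at day 14 was 1.45 (SE 0.34, adjusted p = 0.00587), and against day 7 it was 1.55 (SE 0.34, adjusted p = 0.0062). Without day 14 replicate 1 the log2 fold change of ISG15 at day 14 was 0.97 (adjusted p = 0.0142).

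UBE2L6 was at 317, 303 and 284 CPM in 2D, at 400.1, 335 and 277 CPM at day 7, and at 742, 599 and 529 CPM at day 14. Again the day 14 samples stood clear of the rest, by a log2 fold change of 1.05 against 2D (SE 0.17, adjusted p = 0.000577) and of 0.89 against day 7 (SE 0.17, adjusted p = 0.00294). HERC6 rose by 1.20 on the log2 scale at day 7, with an adjusted p of 0.0121, and by 1.11 at day 14, with one of 0.021. The day 7 call of HERC6 was lost without day 7 replicate 1 (adjusted p = 0.0764) or 2D replicate 1 (0.0501). Its day 14 call was lost without any of the 3 2D samples or day 14 replicates 2 or 3, and with total counts alone (adjusted p up to 0.0786). USP18 was called in no comparison, with 0.37 at day 7 and 0.49 at day 14 on the log2 scale. Of its 100-base stretches, 36.4% also occur in USP41 or unnamed loci of a later GENCODE release. In the annotation used for the counts, 0.0% of its exon bases overlap another gene.

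Of the 6 tested genes that sense RNA or DNA or, like ADAR, edit RNA, ADAR rose and IFI16 fell at day 7, and IFI16 fell at day 14. None of the 6 was called between the time points. In these comparisons 43.4%, 36.2% and 28.1% of all tested genes were called in either direction. ADAR, which edits adenosine in double-stranded RNA, was at 258, 285 and 335 CPM in 2D, at 599, 522 and 494 CPM at day 7, and at 289.8, 460.4 and 447 CPM at day 14. All 3 day 7 samples were above 2D, while day 14 overlapped it. The log2 fold change of ADAR was 0.88 at day 7 (SE 0.18, adjusted p = 0.00221) and 0.45 at day 14 (SE 0.18, adjusted p = 0.074).

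IFI16, a sensor of DNA in the nucleus, was at 528, 526 and 506 CPM in 2D, at 322, 297 and 282 CPM at day 7, and at 299, 421 and 436 CPM at day 14. Every 3D sample was below every 2D sample. The log2 fold change of IFI16 was -0.79 at day 7 (SE 0.16, adjusted p = 0.00144) and -0.43 at day 14 (SE 0.15, adjusted p = 0.0443). The day 14 call of IFI16 held in 8 of 18 alternative fits, with an adjusted p of up to 0.113, and was lost without any 2D sample (0.0694 to 0.0931), without day 7 replicates 2 (0.0542) or 3 (0.0509), or without day 14 replicate 1 (0.0682). DDX58 (RIG-I), IFIH1 (MDA5) and DHX58 (LGP2), the helicases that detect viral RNA, and EIF2AK2 (PKR), a kinase that stops translation on double-stranded RNA, were called in no comparison. Of the 100-base stretches of DDX58, 88.0% also occur in an unnamed locus of a later GENCODE release, the largest share of all the effector genes. In the annotation used for the counts, 0.0% of its exon bases overlap another gene. The log2 fold changes of these 4 genes at day 14 were 0.50, -0.01, -0.53 and -0.06, and DHX58 had the largest SE (0.36), with 20.7 to 46.2 CPM in the day 14 samples.

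The OAS enzymes make oligoadenylates that activate an RNA-degrading nuclease, and ISG20 is itself an RNA exonuclease. Of the 4 tested, OAS2 rose at day 7, OAS2, OASL and ISG20 rose at day 14, and OASL and ISG20 rose between the time points. OASL, a relative that lacks the synthetic activity, was at 29.5, 25.9 and 26.0 CPM in 2D, at 24.4, 17.7 and 10.4 CPM at day 7, and at 59.6, 47.1 and 45.2 CPM at day 14. The day 7 samples were the lowest 3 and the day 14 samples the highest 3. The fitted log2 fold change was -0.63 at day 7 (SE 0.25, adjusted p = 0.0569), 0.90 at day 14 (SE 0.25, adjusted p = 0.0137) and 1.53 from day 7 to day 14 (SE 0.25, adjusted p = 0.00132). The day 14 call of OASL was lost without 2D replicate 2 (adjusted p = 0.0551), without 2D replicate 3 (0.0582) and with total counts alone (0.0529).

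ISG20 was at 361, 313 and 288 CPM in 2D, at 449.7, 283 and 226 CPM at day 7, and at 988, 584 and 586 CPM at day 14. Day 7 overlapped 2D, and day 14 lay above both. On the log2 scale the difference was 1.17 at day 14 against 2D (SE 0.26, adjusted p = 0.00399), and against day 7 it was also 1.17 (SE 0.26, adjusted p = 0.00606). OAS2 rose by 0.88 at day 7 on the log2 scale, with an adjusted p of 0.00363, and by 0.78 at day 14, with one of 0.00924, the latter lost with total counts alone (0.058). OAS3, its neighbour on chromosome 12 (112938444 to 113011723 for both, GRCh38), was called in no comparison and had 0.30 and 0.10.

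The IFIT proteins bind viral RNA by its 5′ end and are encoded in a cluster on chromosome 10 (89283694 to 89420997). Of the 4, IFIT1 rose at day 7, IFIT1, IFIT2 and IFIT3 rose at day 14, and IFIT1 and IFIT2 rose between the time points. IFIT1 was at 24.95, 23.96 and 23.65 CPM in 2D, at 97.7, 46.0 and 25.8 CPM at day 7, and at 119, 121 and 107 CPM at day 14. The 3 day 7 samples spread from just above 2D to near day 14, and the day 14 samples lay close together. In edgeR, the log2 fold change was 1.22 at day 7 (SE 0.34, adjusted p = 0.0114) and 2.26 at day 14 (SE 0.35, adjusted p = 0.000427), a 4.79-fold higher level. The day 7 call of IFIT1 was lost without day 7 replicate 1 (log2 fold change 0.55, adjusted p = 0.0584). Its call between the time points (1.03, adjusted p = 0.037) held in 11 of 18 alternative fits. That call was lost without day 7 replicates 2 (0.113) or 3 (0.0708) or any day 14 sample (0.0509 to 0.072). Total counts alone and the fit to the 6 samples compared lost it too.

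IFIT2 was at 24.2, 24.9 and 26.6 CPM in 2D, at 30.02, 20.7 and 19.96 CPM at day 7, and at 37.1, 58.2 and 46.6 CPM at day 14. Only the day 14 samples of IFIT2 left the 2D range in 1 direction. Its log2 fold change was 0.91 at day 14 (SE 0.20, adjusted p = 0.00422), and 1.00 against day 7 (SE 0.20, adjusted p = 0.00406), and 8.7% of its exon bases are shared with an overlapping locus. The call of IFIT3 at day 14 (0.77, adjusted p = 0.0345) held in 12 of 18 alternative fits. That call was lost without any 2D sample or without day 14 replicates 2 or 3 (adjusted p 0.0714 to 0.107), and with total counts alone. IFIT5, which had no call, stood at 0.50 at day 14 (adjusted p = 0.0521).

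The IFITM genes, which encode small membrane proteins that hinder the fusion of viruses with the cell, were the members called in opposite directions at the 2 time points. All 3 fell at day 7, rose at day 14 and rose between day 7 and day 14. IFITM1 was at 1606, 1471 and 1343 CPM in 2D, at 1139, 759 and 691 CPM at day 7, and at 3713, 2143 and 2567 CPM at day 14. The 3 groups did not overlap. The fitted log2 fold change was -0.77 at day 7 (SE 0.22, adjusted p = 0.0139), 0.93 at day 14 (SE 0.22, adjusted p = 0.00625) and 1.70 between the time points (SE 0.23, adjusted p = 0.000403), a 3.25-fold higher level at day 14 than at day 7. The call of IFITM1 at day 7 was lost without day 7 replicates 2 (adjusted p = 0.0525) or 3 (0.0565).

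IFITM2 was at 631, 578 and 498 CPM in 2D, at 447, 363 and 377 CPM at day 7, and at 1540.0, 939 and 976 CPM at day 14. Its groups were separate too. On the log2 scale the difference was -0.53 at day 7 (SE 0.19, adjusted p = 0.042), 1.02 at day 14 (SE 0.19, adjusted p = 0.00163) and 1.54 between the time points (SE 0.20, adjusted p = 3e-04). The fall of IFITM2 at day 7 held in 11 of 18 alternative fits and was lost without 2D replicates 1 (0.116) or 2 (0.0815), without day 7 replicates 2 (0.12) or 3 (0.100), and with the trend with gene length removed (0.108).

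IFITM3 was at 21.9, 18.8 and 17.5 CPM in 2D, at 12.9, 10.4 and 10.7 CPM at day 7, and at 46.5, 27.1 and 29.2 CPM at day 14. Like the other members of its family, it showed 3 groups that did not overlap, at a much lower level. In edgeR, the log2 fold change was -0.77 at day 7 (SE 0.22, adjusted p = 0.0117), 0.82 at day 14 (SE 0.21, adjusted p = 0.00982) and 1.59 between the time points (SE 0.22, adjusted p = 0.000465). The day 14 call of IFITM3 was lost without 2D replicates 2 (0.0506) or 3 (0.0605). The 3 genes lie within chromosome 11, 307631 to 327537. In a later GENCODE release, 34.0% of the 100-base stretches of IFITM1 also occur in a transcript of IFITM3 or of an unnamed locus. Reads may therefore be split between them. The share was 2.1% for IFITM2 and 0.0% for the transcript used for IFITM3. In addition, 28.3% of the exon bases of IFITM3 are shared with a gene on the other strand.

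BST2 (tetherin), which holds budding virus at the cell surface and whose promoter carried 2 overlapping matches, was at 401, 349 and 320.2 CPM in 2D, at 740.3, 667 and 609 CPM at day 7, and at 1424, 845 and 785 CPM at day 14. The 3 groups were separate and in that order. Against 2D, BST2 rose by 0.91 at day 7 (log2, adjusted p = 0.0037) and by 1.51 (adjusted p = 0.000221) at day 14. Its further rise between the time points (0.60, adjusted p = 0.047) held in 7 of 18 alternative fits, was lost without any of the 2D or day 7 samples or day 14 replicate 1 (adjusted p 0.056 to 0.139), and had a log2 fold change of 0.17 with the length trend removed (adjusted p = 0.365). PLSCR1, a phospholipid scramblase, was called in no comparison (0.48 at day 14, adjusted p = 0.11).

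**Figure D3:**
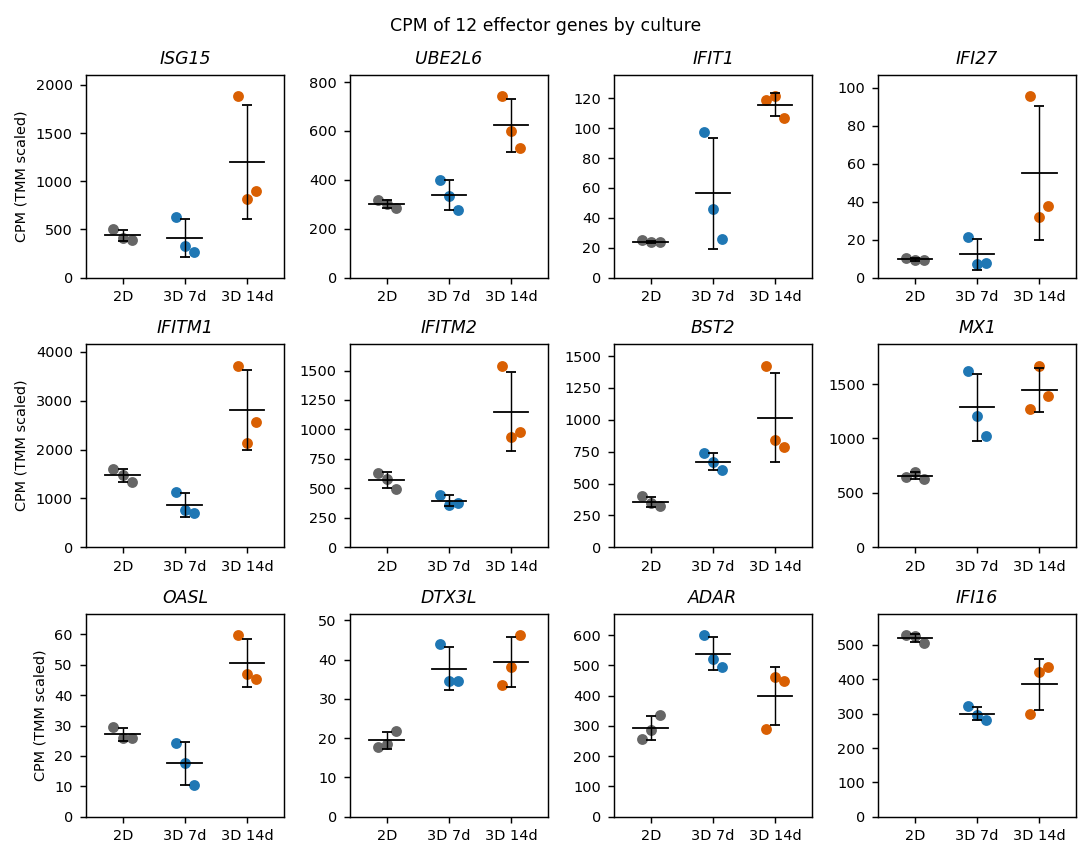
CPM of 12 effector genes, with TMM factors. Each panel is a gene, the points are the 3 samples of a culture, the horizontal line is their mean, the error bars are ± 1 SD, and each y axis starts at 0. IFITM1 and IFITM2 are lowest at day 7 and highest at day 14, IFI16 is below 2D at both time points, and day 7 replicate 1 is the leftmost blue point.

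The dynamin-like GTPase MX1 rose at both time points, and of the 4 guanylate-binding proteins (GBPs), which are GTPases more responsive to interferon gamma, 1 rose at day 7 and 0 at day 14. Of the 6 GTPases tested, MX1 and GBP4 rose at day 7, MX1 rose at day 14 and none was called between them. MX1 was at 650.2, 696 and 630.4 CPM in 2D, at 1625, 1205 and 1027 CPM at day 7, and at 1272, 1668 and 1391 CPM at day 14. All 3D samples were above all 2D samples, and the 2 time points overlapped. Its log2 fold change was 0.96 at day 7 (SE 0.18, adjusted p = 0.000914) and 1.13 at day 14 (SE 0.18, adjusted p = 0.000456). MX2, beside it on chromosome 21 (41362027 to 41459214), was called in no comparison, with -0.22 and -0.21.

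GBP4 was at 3.38, 3.92 and 4.47 CPM in 2D, at 8.77, 12.3 and 6.52 CPM at day 7, and at 3.37, 7.02 and 7.59 CPM at day 14. Its day 7 samples lay above 2D, and its day 14 samples spanned from the 2D range to the day 7 range. The log2 fold change of GBP4 was 1.23 at day 7 (SE 0.32, adjusted p = 0.0089) and 0.61 at day 14 (SE 0.32, adjusted p = 0.158), and the day 7 call was lost without day 7 replicate 2 (0.0541). GBP1, GBP2 and GBP5 were called in no comparison. Their log2 fold changes at day 7 were 0.59, 0.20 and 0.70, with the lowest counts for GBP5, at 0.855 to 3.24 CPM over the 9 samples.

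RSAD2 (viperin), which makes a nucleotide that ends viral RNA chains, and CMPK2, a nucleotide kinase encoded next to it on chromosome 2 (6840570 to 6898239), both rose at day 14 and between the time points, and neither was called at day 7. RSAD2 was at 7.79, 7.999 and 7.35 CPM in 2D, at 8.74, 6.03 and 4.18 CPM at day 7, and at 11.6, 15.0 and 13.4 CPM at day 14. Its day 14 samples were the highest 3. The fitted log2 fold change was 0.79 at day 14 (SE 0.25, adjusted p = 0.0261) and 1.08 between the time points (SE 0.25, adjusted p = 0.0083). The day 14 call of RSAD2 held in 12 of 18 alternative fits. That call was lost without any 2D sample or without day 14 replicates 2 or 3 (adjusted p 0.0524 to 0.095), and with total counts alone.

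CMPK2 was at 33.8, 40.6 and 28.9 CPM in 2D, at 64.2, 22.4 and 16.9 CPM at day 7, and at 58.2, 92.1 and 112 CPM at day 14. Day 7 replicate 1 lay above all 2D samples and within the day 14 range, and the other day 7 replicates lay below 2D. On the log2 scale the difference was 0.0031 at day 7 (SE 0.40, adjusted p = 0.996), and without day 7 replicate 1 it was -0.83 (adjusted p = 0.0292). At day 14 it was 1.35 (SE 0.41, adjusted p = 0.0204), and between the time points it was also 1.35 (SE 0.41, adjusted p = 0.0265). Each of these calls of CMPK2 held in 14 of 18 alternative fits. The call at day 14 was lost without 2D replicates 1 (0.0575) or 3 (0.0816) or day 14 replicate 3 (0.0815), and with total counts alone. That between the time points was lost without day 7 replicates 2 (0.094) or 3 (0.0772) or day 14 replicates 2 (0.0542) or 3 (0.0943).

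DTX3L, a ubiquitin ligase, works as a complex with PARP9, and PARP12 and PARP14 attach ADP-ribose to proteins. Of the 4, DTX3L and PARP9 rose at day 7, DTX3L, PARP9 and PARP12 rose at day 14, and PARP12 rose between the time points. DTX3L was at 17.8, 18.6 and 21.8 CPM in 2D, at 44.1, 34.6 and 34.5 CPM at day 7, and at 33.6, 38.2 and 46.2 CPM at day 14. Every 3D sample was above every 2D sample and the time points overlapped. In edgeR, the log2 fold change was 0.96 at day 7 (SE 0.17, adjusted p = 0.000898) and 1.02 at day 14 (SE 0.18, adjusted p = 0.000837).

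PARP9 was at 50.4, 56.9 and 62.3 CPM in 2D, at 108, 87.6 and 70.9 CPM at day 7, and at 92.8, 128 and 117 CPM at day 14. It shared with DTX3L, its neighbour on chromosome 3, the order of the groups, 2D below both. Its log2 fold change was 0.65 at day 7 (SE 0.18, adjusted p = 0.0111) and 1.00 at day 14 (SE 0.18, adjusted p = 0.00115). The day 7 call of PARP9 was lost without 2D replicate 1 (0.0638), without day 7 replicate 1 (0.0528) and with total counts alone (0.0645). PARP12 rose by 1.55 on the log2 scale at day 14 (adjusted p = 0.00248), and by 1.19 between the time points (adjusted p = 0.0139), the latter lost without day 7 replicate 2 (0.0561) or day 14 replicate 3 (0.0539). PARP14 had no call and stood at -0.33 at day 14.

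Among the TRIM proteins and the components of nuclear bodies, all calls were upward, though TRIM25 (-0.24) and SP100 (-0.20) lay below 0 on the log2 scale at day 7. Of the 6, TRIM21 and PML rose at day 7, TRIM21, TRIM22 and SP110 rose at day 14 and none was called between the time points. TRIM21, a ubiquitin ligase that recognises antibody inside cells, was at 82.8, 89.0 and 86.4 CPM in 2D, at 151, 144 and 139.7 CPM at day 7, and at 153, 172 and 121 CPM at day 14. All 3D samples were above 2D. The fitted log2 fold change was 0.75 at day 7 (SE 0.15, adjusted p = 0.00135), and 0.79 at day 14 (SE 0.15, adjusted p = 0.00135).

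SP110, a nuclear body protein, was at 106, 102 and 105 CPM in 2D, at 158, 129 and 111 CPM at day 7, and at 173, 144 and 184 CPM at day 14. Both 3D groups lay wholly above 2D, and day 7 replicate 1 reached into the day 14 range. On the log2 scale the difference was 0.35 at day 7 (SE 0.16, adjusted p = 0.0889) and 0.67 at day 14 (SE 0.16, adjusted p = 0.005). TRIM22 had 0.82 at day 14 (adjusted p = 0.00777). The call of PML, the scaffold of the nuclear bodies, at day 7 (0.47, adjusted p = 0.0465) held in 6 of 18 alternative fits. That call was lost without any 2D or day 7 sample or day 14 replicate 3 (adjusted p 0.0523 to 0.216), and with total counts alone. TRIM25 and SP100 were called in no comparison, with -0.11 and 0.06 at day 14, and SP100 ranged from 226 to 311 CPM over the 9 samples.

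SAMD9 and SAMD9L, neighbours on chromosome 7 (93099513 to 93148385) that restrain translation and growth, had no call. SAMD9 was at 39.9, 42.2 and 41.7 CPM in 2D, at 46.0, 21.7 and 20.7 CPM at day 7, and at 31.4, 35.4 and 44.9 CPM at day 14. SAMD9L was at 73.0, 72.9 and 81.5 CPM in 2D, at 73.5, 49.6 and 29.4 CPM at day 7, and at 62.8, 61.4 and 88.3 CPM at day 14. In both genes the 3D samples overlapped 2D. Their log2 fold changes at day 7 were -0.49 (SE 0.27, adjusted p = 0.157) and -0.58 (SE 0.26, adjusted p = 0.0941).

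Of the 5 other genes named for induction by interferon, IFI6, IFI27 and IFI35 rose at day 14, these 3 and IFI44 rose between the time points, and none was called at day 7. IFI27, a small hydrophobic protein of mitochondria and the nuclear envelope, had the largest log2 fold change of the 52 genes at day 14. It was at 10.4, 9.39 and 9.10 CPM in 2D, at 21.5, 7.45 and 7.66 CPM at day 7, and at 95.5, 31.98 and 37.9 CPM at day 14. Day 7 replicate 1 was above 2D and the other day 7 samples were below it, while the 3 day 14 samples exceeded all others. In edgeR, the log2 fold change was 2.52 at day 14 (SE 0.45, adjusted p = 0.00112), a 5.73-fold higher level, and 2.17 between the time points (SE 0.45, adjusted p = 0.00441). Without day 14 replicate 1, which held the highest value, the log2 fold change of IFI27 at day 14 was 1.87 (adjusted p = 0.00154).

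IFI35, a partner of the adaptor NMI, was at 159, 149.9 and 139 CPM in 2D, at 234, 168 and 147 CPM at day 7, and at 347, 243 and 232 CPM at day 14. Day 7 overlapped both neighbours, and day 14 lay above 2D. Its log2 fold change was 0.87 at day 14 (SE 0.20, adjusted p = 0.00447). Its rise between the time points (0.58, SE 0.20, adjusted p = 0.0426) held in 7 of 18 alternative fits. That call was lost without any 2D sample (0.0511 to 0.0555), day 7 replicates 2 (0.128) or 3 (0.148) or day 14 replicate 1 (0.0978). Total counts alone and the removal of the length trend (0.241) lost it too. IFI6, with 3 matches in its promoter and a function in the endoplasmic reticulum and mitochondria, had 1.23 at day 14 (adjusted p = 0.0145, and 0.0596 without 2D replicate 3) and 1.52 between the time points (adjusted p = 0.00735). IFI44 had 0.80 between the time points (adjusted p = 0.0229), lost without day 7 replicates 2 (0.0759) or 3 (0.0687), without day 14 replicate 3 (0.0589) and with the length trend removed (0.0653), and IFI44L, next to it, was called in no comparison.

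Of the remaining effectors, XAF1 fell at both time points, EPSTI1 rose at day 14 and between the time points, and LGALS3BP fell at day 7 and rose between the time points. XAF1, which counteracts an inhibitor of apoptosis, was at 33.9, 37.2 and 40.4 CPM in 2D, at 28.03, 15.2 and 11.1 CPM at day 7, and at 16.0, 24.8 and 21.1 CPM at day 14. No 3D sample reached the lowest 2D sample. The log2 fold change of XAF1 was -1.03 at day 7 (SE 0.28, adjusted p = 0.011) and -0.85 at day 14 (SE 0.28, adjusted p = 0.033). The latter held in 14 of 18 alternative fits and was lost without 2D replicates 2 (0.0593) or 3 (0.0778) or day 14 replicates 1 (0.0783) or 3 (0.075). Of the exon bases of XAF1, 69.9% are shared with PRAL on the other strand, and without a strand in the counting the reads of these genes cannot be told apart.

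EPSTI1, a regulator of macrophage and epithelial responses, was at 82.5, 88.4 and 75.5 CPM in 2D, at 103, 75.04 and 55.9 CPM at day 7, and at 136, 124 and 125 CPM at day 14. Its day 14 samples were the highest 3. The fitted log2 fold change was 0.65 at day 14 (SE 0.19, adjusted p = 0.0187) and 0.72 between the time points (SE 0.19, adjusted p = 0.0146). The first was lost without 2D replicates 1 (0.0583) or 3 (0.0882) and with total counts alone (0.0985), and the second without day 7 replicates 2 (0.0501) or 3 (0.0511). LGALS3BP, a secreted galectin-binding glycoprotein, was scarce: 182, 288 and 226 counts in 2D, 76, 0 and 16 at day 7, and 159, 148 and 275 at day 14. The count of 0 allows a level of up to 0.0548 CPM. The fall of LGALS3BP at day 7 had a log2 fold change of -2.47 (SE 0.82, adjusted p = 0.027), was lost without day 7 replicate 3 (0.0842), 2D replicates 1 (0.0501) or 2 (0.0502) and in DESeq2 (0.0719), and its rise between the time points was 2.71 (adjusted p = 0.0277), lost without day 7 replicate 3 (0.0902), day 14 replicate 3 (0.0834) and in DESeq2 (0.062).

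**Figure D4:**
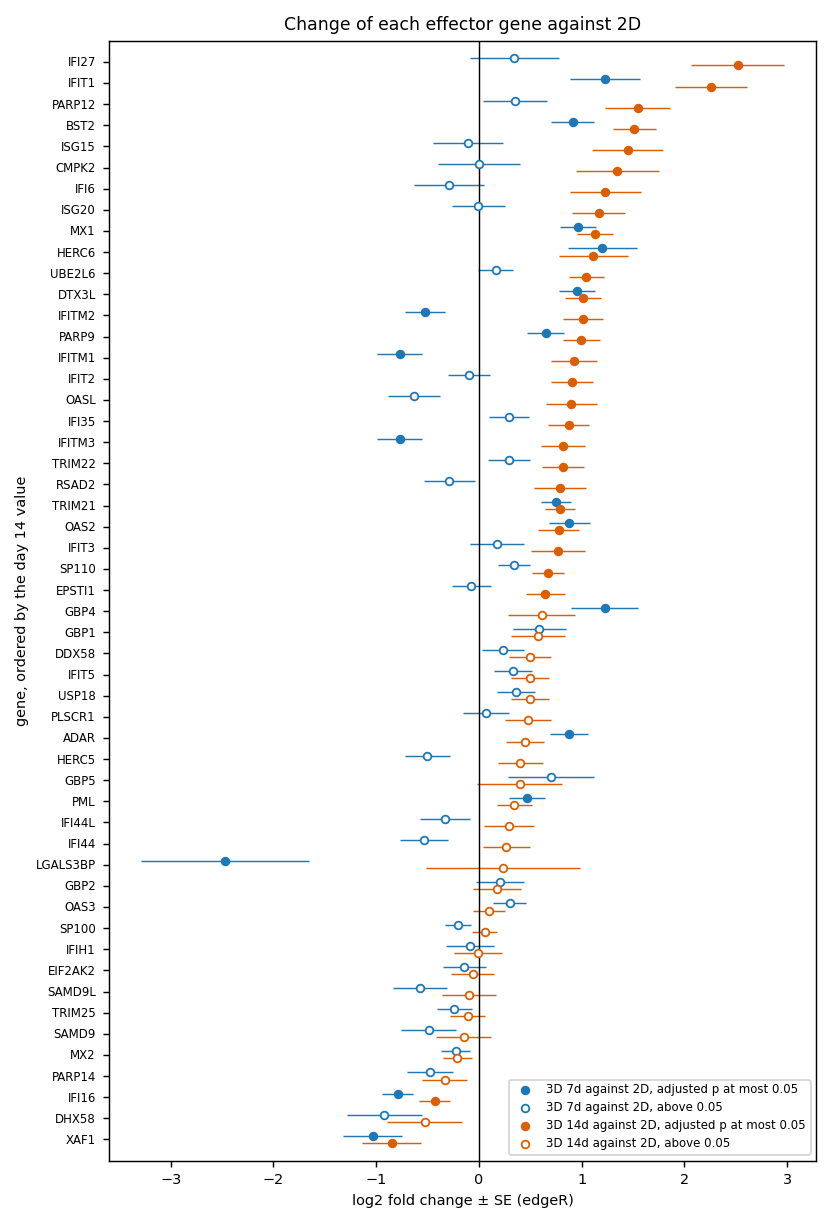
Log2 fold change against 2D of the 52 tested effector genes at day 7 (blue) and day 14 (orange), with the SE as horizontal bars. Filled points passed an adjusted p of 0.05 in edgeR, and genes are ordered by the day 14 value. IFI27 stands highest at day 14 at 2.52 and XAF1 lowest at -0.85, and the 3 IFITM genes have filled points on both sides of 0.

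The 18 genes called in no comparison were USP18, DDX58, IFIH1, DHX58, EIF2AK2, OAS3, IFIT5, PLSCR1, MX2, GBP1, GBP2, GBP5, PARP14, TRIM25, SP100, SAMD9, SAMD9L and IFI44L. A p above the threshold does not show that these genes were equal between cultures. Several were close to it, such as USP18 at day 14 (adjusted p = 0.0531) and DHX58 at day 7 (adjusted p = 0.0582).

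Genes that rose at day 14 had promoters with and without the letters of the response element, where only the promoter listed first was searched. Of the 27 genes with a match, 14 rose and 0 fell at day 14, and the median of their log2 fold changes was 0.65. Of the 14 without, 7 rose and 2 fell (IFI16 and XAF1), with a median of 0.59. Between the time points 13 of the 27 and 4 of the 14 rose. At day 7, 6 of the 27 rose and 3 fell, and 3 of the 14 rose and 2 fell. No test was run on these counts. IFIH1, EIF2AK2, SAMD9 and PARP14, with 1 listed promoter each, held 1 or more matches and were called in no comparison. UBE2L6, PARP9 and CMPK2 held none in the promoter searched and rose at day 14. For these genes 2, 2 and 3 promoters were listed, so a match in another promoter is not excluded.

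The effector genes varied together among the day 7 samples. Day 7 replicate 1 was the highest of the 3 for 50 of the 52 genes, MX2 and GBP4 excepted, and replicate 3 was the lowest for 46. Over all tested genes, replicate 1 was highest for 39.6% and replicate 3 lowest for 32.7%. The median effector gene was 1.67-fold higher in replicate 1 than in replicate 3, against 1.01-fold for all genes, and 36 of the 52 differed by at least 1.5-fold, against 13.2% of all genes. As a difference from the mean of 2D, the median of the 52 genes was 0.52, -0.13 and -0.37 on the log2 scale in day 7 replicates 1, 2 and 3, and 0.53, 0.61 and 0.67 in the day 14 samples. By this median day 7 replicate 1 stood next to the day 14 samples, and the other day 7 replicates stood below 2D. The median SD of log2 CPM among the 3 replicates was 0.41 for the effector genes and 0.19 for all genes at day 7, 0.11 and 0.14 in 2D, and 0.29 and 0.34 at day 14.

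Over all genes, day 7 replicate 1 stood apart from the other 2 day 7 samples, with a chi-square of the counts per gene of 69.7 against replicate 2 and 81.9 against replicate 3, which differed from each other by 22.5. The same value was 28.4 to 54.1 between 2D samples and 155 to 305 between day 14 samples, above every day 7 pair. The total counts of the 3 day 7 samples were 58272630, 56649465 and 54810673, mitochondrial genes took 1.64%, 1.62% and 1.44% of the counts, and ribosomal protein genes 1.68%, 1.69% and 1.84%. The part of any of these in the spread of the effector genes was not tested.

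**Figure D5:**
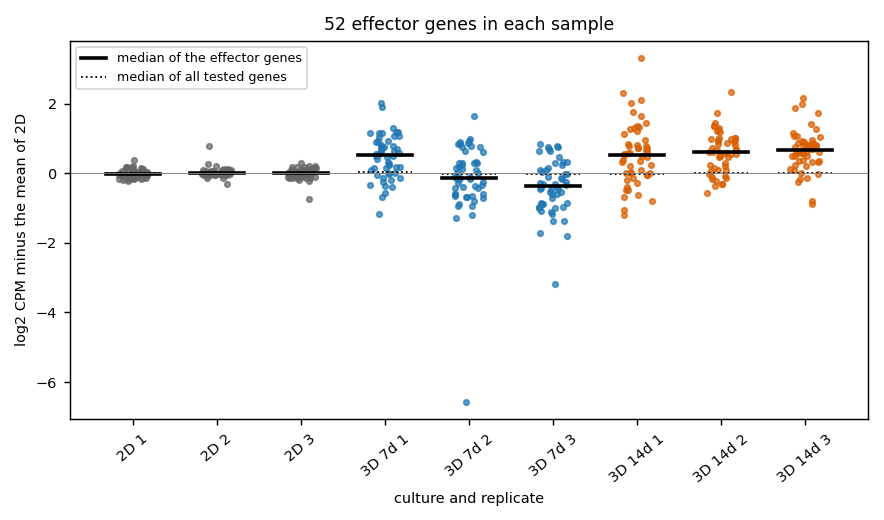
The 52 tested effector genes (points) in each of the 9 samples, as log2 CPM minus the mean of the 2D samples. Solid lines are the medians of the effector genes and dotted lines the medians of all tested genes. The solid line runs from 0.52 to -0.37 among the 3 day 7 samples while the dotted lines stay within 0.03 of 0, and the lowest point is LGALS3BP, with 0 counts in day 7 replicate 2.

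Gene length moved with the day 14 values. In day 14 replicate 1, log2 CPM relative to the mean of the 9 samples fell by 0.18 per doubling of exon length. The slopes of the other 8 samples were between -0.06 and 0.09. All 3 day 7 samples had positive slopes (0.06 to 0.09), and day 14 replicates 2 and 3 had 2e-04 and 0.0036. Effector genes shorter than the median of 3441 bases rose at day 14 in 17 of 26 cases (median log2 fold change 0.79, with 22.6% of all short genes rising), and longer ones in 9 of 26 (0.43, with 15.4% of all long genes). At day 7, 2 shorter ones rose and 5 fell, and 9 longer ones rose and 1 fell. Of all short and long genes, 20.1% and 24.2% rose at day 7. Between the time points 15 shorter and 5 longer ones rose, with 19.9% and 9.12% of all such genes. The IFITM genes are short (897, 1057 and 1015 bases). Without day 14 replicate 1, 31 of the 52 rose at day 14, next to 2845 of all 13335 genes. A trend with length was also removed from each library, which was added after these shares were seen. With it removed, 29 rose at day 14, next to 2803 of all 13463 genes, and 12 rose and 10 fell at day 7, next to 3165 and 3025.

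Upstream of the effector genes, interferon transcripts were scarce. Of 21 listed ligands, 15 had at most 3 counts in every sample, and 2 passed the filter. IFNA2, a type I interferon, was at 2.00, 1.71 and 2.62 CPM in 2D, at 1.505, 1.39 and 0.836 CPM at day 7, and at 5.21, 6.22 and 5 CPM at day 14. The day 7 samples were lowest and the day 14 samples highest, without overlap. On the log2 scale the difference was 1.38 at day 14 (SE 0.32, adjusted p = 0.00479) and 2.14 between the time points (SE 0.33, adjusted p = 0.000849), and at day 7 it was -0.76 (SE 0.32, adjusted p = 0.072). The genes for type I interferons resemble each other, and how reads with several matches were counted is not given in the sources used here. IFNG, which encodes interferon gamma, was at 0.990, 1.05 and 1.53 CPM in 2D, at 3.29, 2.12 and 1.39 CPM at day 7, and at 2.22, 1.47 and 1.26 CPM at day 14, with overlap between the groups. It had no call, with log2 fold changes of 0.93 (adjusted p = 0.0868) at day 7 and 0.47 (adjusted p = 0.399) at day 14. IFNB1, named here after its counts were seen, had 4 counts in day 7 replicate 1, 12 in day 14 replicate 1 and 0 in the other samples.

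Of the 6 receptor chains, IFNLR1 rose and IFNGR2, IFNAR1 and IFNGR1 fell in both comparisons with 2D. For this and the following lists, the shares of all tested genes were 22.2% up and 21.2% down at day 7, and 19.0% up and 17.2% down at day 14. IFNGR2, a chain of the receptor for interferon gamma, was at 227, 225 and 181 CPM in 2D, at 70.8, 77.7 and 99.6 CPM at day 7, and at 134, 164 and 123 CPM at day 14. In edgeR, the log2 fold change was -1.35 at day 7 (SE 0.17, adjusted p = 8.59e-05) and -0.58 at day 14 (SE 0.17, adjusted p = 0.0176). IFNLR1, the chain for lambda interferons, was at 1.95, 2.74 and 0.934 CPM in 2D, at 13.6, 7.31 and 7.55 CPM at day 7, and at 4.89, 12.1 and 8.06 CPM at day 14, above 2D in each 3D sample, with log2 fold changes of 2.34 (adjusted p = 0.000927) and 2.15 (adjusted p = 0.0021).

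Of the 12 receptor kinases, STATs and IRFs, 4 rose and 0 fell at day 7, and 4 rose and 0 fell at day 14. JAK1 was at 177, 187 and 169.6 CPM in 2D, at 484, 465 and 498 CPM at day 7, and at 273, 457 and 392 CPM at day 14, with log2 fold changes of 1.44 (SE 0.17, adjusted p = 6.02e-05) and 1.07 (SE 0.17, adjusted p = 0.00057). IRF7, the factor that amplifies type I interferon transcription, was at 299.6, 288 and 265 CPM in 2D, at 361, 254 and 218 CPM at day 7, and at 639, 545 and 592 CPM at day 14. Like ISG15 and ISG20, IRF7 straddled 2D at day 7 and lay above it at day 14, with a log2 fold change of 1.06 (SE 0.18, adjusted p = 0.000712). STAT2 (0.16 at day 14, adjusted p = 0.594) and IRF9, of whose exon bases 87.8% are shared with another locus, were named after their values were seen and were not called.

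The other lists held genes called in both directions. Of 12 tested sensing receptors and adaptors, 5 rose and 0 fell at day 7, and 5 rose and 1 fell at day 14. TLR7, the endosomal receptor for single-stranded RNA, was at 7.85, 9.76 and 6.85 CPM in 2D, at 36.3, 29.2 and 23.6 CPM at day 7, and at 27.8, 36.4 and 36.1 CPM at day 14. It rose by 1.86 (adjusted p = 3.58e-05) and 2.03 (adjusted p = 3.11e-05) on the log2 scale, with every 3D sample above 2D. ZBP1, a sensor of left-handed nucleic acid, was at 7.21, 6.89 and 6.22 CPM in 2D, at 23.1, 18.1 and 13.2 CPM at day 7, and at 20.5, 24.4 and 26.7 CPM at day 14. Its rises were 1.42 (adjusted p = 0.000265) and 1.82 (adjusted p = 7.94e-05), again without overlap with 2D. Of 8 tested negative regulators, 3 rose and 3 fell at day 7, and 2 rose and 3 fell at day 14. The phosphatase PTPN6 was at 988, 1080.0 and 972 CPM in 2D, at 2096, 1934 and 1936 CPM at day 7, and at 2062, 2501 and 1766 CPM at day 14, and rose by 0.97 (adjusted p = 0.000282) and 1.06 (adjusted p = 0.000234). The nucleotide hydrolase SAMHD1 was at 17.8, 21.6 and 18.99 CPM in 2D, at 52.4, 40.8 and 33.1 CPM at day 7, and at 19.5, 21.3 and 22.8 CPM at day 14. At day 7 SAMHD1 rose by 1.11 (adjusted p = 0.000478), and its day 14 samples overlapped 2D (0.13, adjusted p = 0.621). Of 32 further interferon-stimulated genes tested, 9 rose and 4 fell at day 7, and 10 rose and 5 fell at day 14. Their median log2 fold change was -0.02 at day 7 and 0.26 at day 14, against -0.004 and 0.02 over all genes. UBA7, the enzyme that activates ISG15 for its conjugation, was at 140.2, 179 and 186 CPM in 2D, at 52.5, 49.0 and 44.5 CPM at day 7, and at 63.5, 70.7 and 62.4 CPM at day 14, below 2D in every 3D sample while ISG15 and UBE2L6 were above it at day 14. The log2 fold change of UBA7 was -1.79 at day 7 (SE 0.15, adjusted p = 6.36e-06) and -1.36 at day 14 (SE 0.15, adjusted p = 4.28e-05). ZNFX1, an RNA helicase that senses viral RNA, was at 55.99, 63.6 and 64.8 CPM in 2D, at 222, 185 and 169.7 CPM at day 7, and at 122, 218 and 169.6 CPM at day 14, and rose by 1.64 (adjusted p = 5.69e-05) and 1.47 (adjusted p = 0.000171).

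The labelled cell type was checked with its markers. All 8 B cell markers passed the filter, and their summed level was 3420 to 3460 CPM in 2D, 3890 to 4550 CPM at day 7 and 4570 to 5190 CPM at day 14. None of 8 monocyte and macrophage markers passed, and their sum stayed under 1 CPM in every sample, though 1 of them, CD68, shares 100% of its exon bases with other loci and was listed at 0 in all 9 samples. Of 10 T cell markers, 2 passed (TRAC and TRBC1, both receptor constant regions), while CD3D, CD3G and CD8B had at most 3 counts in every sample. TRAC and TRBC1 rose at both time points (TRAC by 0.97 on the log2 scale at day 14, adjusted p = 0.000383). The summed level of the 10 was 327 to 377 CPM in 2D, 487 to 513 CPM at day 7 and 556 to 758 CPM at day 14. Most of that sum was TRAC, with means of 333, 473 and 651 CPM. Of 5 markers of plasmacytoid dendritic cells, the blood cells that secrete most type I interferon, TCF4 and LILRA4 passed, and both rose at day 14, with 1.29 for LILRA4 (adjusted p = 0.00387). CLEC4C had at most 13 counts in any sample. IL3RA was listed at 0 throughout, but its symbol stands on 2 chromosomes of the annotation and how reads shared between copies were counted is not given in the sources used here. The summed level of the 5 was 161 to 174 CPM in 2D, 165 to 197 CPM at day 7 and 193 to 266 CPM at day 14. Most of that sum was TCF4, with means of 162, 171 and 217 CPM in these groups, against 4.67, 5.25 and 11.4 CPM for LILRA4. Of 6 NK cell markers, 2 passed, with a sum of 2.06 to 2.6 CPM in 2D, 3.18 to 3.67 CPM at day 7 and 6.10 to 11.4 CPM at day 14, and of 6 fibroblast markers 2 passed, with a sum of 10.3 to 11.5, 2.36 to 5.33 and 2.68 to 8.91 CPM. The part of these markers in the values of the effector genes was not tested.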

How the data were processed

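RNA of 9 MEC1 samples was sequenced by the authors from SMART-Seq v4 libraries as single reads of 100 bases. Reads were trimmed with Trimmomatic (version 0.39), aligned to GRCh38 with the GENCODE annotation by STAR (version 2.5.3a) and assigned to genes with featureCounts (version 1.6.4), per the methods and the submitters' processing notes. The deposited values are raw counts per gene symbol, with the length of the exons of each gene. Strand and treatment of reads with several matches are not given in the sources used here.

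Samples were grouped by the labels as 2D, 3D_7d and 3D_14d. In R (version 4.3.3), the 13463 genes that exceeded 1 CPM in 3 or more samples were fitted by edgeR (version 4.0.16) with TMM factors, in 1 model of the 9 samples, and compared by its quasi-likelihood test. The Benjamini-Hochberg adjustment covered every gene tested, and an adjusted p of at most 0.05 counted as a call. A prior count of 2 was used for log2 values of single samples. With 3 samples against 3, an exact permutation test cannot go below p = 0.1, so no such test is given for single genes. Averaged over genes, the spread between replicates exceeded counting error in each group. Limits from a count of 0 rest on 3 counts and cover counting error only.

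The effector genes, their roles, the pathway and marker lists and the alternatives were chosen with earlier results of these data known. Given with values in every sample were the 2 genes with the smallest p-value in each role, those called in opposite directions at the time points, and the 2 genes with the smallest p-value in each pathway list. BST2 and LGALS3BP were given in full after their values were seen. Of the 103 genes in the pathway lists, 1 was not analysed here. Promoters were taken from RefSeq (GRCh38.p14). Shared exon bases were computed from the exons given with the counts. Shared stretches of 100 bases were computed from the transcripts of a later GENCODE release than that of the counts. The alternatives were DESeq2 (version 1.42.0) or its size factors, total counts, TMM factors without immunoglobulin, ribosomal protein and mitochondrial genes, filterByExpr or no filter, a fit to the 6 samples compared, a block on the replicate number, each sample left out, an adjusted p of 0.01, and a removed length trend. The scripts were tested on simulated data.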

Additional observations from a re-analysis of the deposited data

Results flagged for a closer look

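The 2 time points in 3D share the same 2D control, so a gene whose change from 2D differed between them is one whose day 14 and day 7 levels differed in the test of that difference itself. For 20 of the 52 tested genes that difference passed an adjusted p of 0.05 in edgeR, and in all 20 the day 14 level was the higher. On the log2 scale, LGALS3BP stood first at 2.71, with 0 to 76 counts in the day 7 samples, followed by IFI27 at 2.17. The IFITM genes had 1.70 for IFITM1, 1.59 for IFITM3 and 1.54 for IFITM2, and these were the genes called lower than 2D at day 7 and higher at day 14. ISG15 had 1.55, OASL 1.53 and IFI6 1.52. CMPK2 had 1.35, PARP12 1.19, ISG20 1.17, RSAD2 1.08, IFIT1 1.03 and IFIT2 1.00. HERC5 had 0.91, UBE2L6 0.89, IFI44 0.80, EPSTI1 0.72, BST2 0.60 and IFI35 0.58. Day 7 replicate 1 was the highest day 7 sample for 50 of the 52 genes, and without it 25 genes differed. Over all 13364 genes tested without it, 1699 rose and 1563 fell between the time points. The cause of the differences was not tested.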

How the results depend on the processing

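Of the 65 calls made on effector genes over the 3 comparisons, 38 held in each of the 18 alternative fits. Genes that fell at day 7 numbered 6, and were 10 with DESeq2 or with the length trend removed, 11 with total counts alone, 14 with the 6 samples compared and 1 at an adjusted p of 0.01. The number over all genes moved too. It was 2853 of 13463 in the main fit, 3198 of 13460 with DESeq2 and 3025 of 13463 with the length trend removed. With total counts alone it was 3580 of 13463, and with the 6 samples compared 3897 of 13083. Genes that fell at day 14 numbered 2, and were 1 with filterByExpr or the 6 samples compared and 0 at 0.01. Over all genes, 2318 of 13463 fell at day 14 in the main fit, 2421 of 19286 with filterByExpr and 2191 of 13191 with the 6 samples. At 0.01 the genes that rose were 7 at day 7 and 11 between the time points, and the pathway genes that fell were 7 at day 14 and 4 from day 7 to day 14. Effector genes at day 14 had a median log2 fold change of 0.43 with total counts alone and 0.55 with no filter.

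Leaving out 1 sample at a time gave 7 to 11 genes up and 3 to 17 down at day 7, and 18 (without 2D replicate 3) to 31 (without day 14 replicate 1) up and 0 to 2 down at day 14. Over all genes, 1564 of 13163 rose at day 14 without 2D replicate 3, and 2845 of 13335 without day 14 replicate 1. Between the time points it gave 13 to 25 up, with a median of 0.24 to 0.71. Pathway genes down were 7 to 12 at day 14 and 4 to 12 between the time points. CMPK2 at day 7 ranged from -0.83, reversed and called without day 7 replicate 1, to 0.28.

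The deviations of same-numbered replicates correlated at -0.1 to 0.19, not over 0.1 in every pair, so the numbers were not taken as pairs. Between 2D and day 14, however, each sample correlated best with its own number, and over the effector genes these correlations were 0.72, 0.29 and 0.26, a hint from the data and not the design. With a replicate block, 10 genes rose and 9 fell at day 7, 27 rose and 1 fell at day 14, and 20 rose between the time points. Over all 13463 genes, 2939 rose and 2821 fell at day 7 in that fit. At day 14, 2458 rose and 2361 fell, and 1818 rose between the time points. The causes of these differences were not tested. Genes near the filter of 1 CPM are limited by depth. LAMP3 lay below 1 CPM in every sample, and 15 of the 21 ligands had at most 3 counts in every sample.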

Other observations

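LAMP3, which was removed by the filter, had 31, 26 and 31 counts in the 2D samples, 23, 26 and 17 at day 7 and 5, 10 and 23 at day 14. Its highest count at day 14 was within the range at day 7.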
